A study of Saccharomyces cerevisiae with 30 samples.

Results

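Line 4 of the evolved tetraploids was measured on 3 arrays, those titled evolved 4 over ancestral 4, out of 30 arrays in the series. Each array was hybridised with RNA of the evolved clone of line 4, labelled with Alexa Fluor 647, and RNA of the tetraploid ancestor of the same line, labelled with Alexa Fluor 555. The value of a row is the log2 ratio of the first culture over the second, so a value above 0 means more transcript in the evolved clone. The other arrays compared evolved and ancestral tetraploids of 7 further lines, on 3 arrays each, and compared ancestral 4 and evolved 4 with a diploid, again on 3 arrays each. All strains were Saccharomyces cerevisiae of the W303 background with SPO11 deleted (kanMX6 or cloNAT), carrying the W303 alleles of ADE2, HIS3, LEU2, TRP1 and URA3 and a mating-type reporter at CAN1. Tetraploids were made by mating a/a with α/α diploids that had been switched with a galactose-driven HO plasmid. Each evolved culture was 1 clone, the fittest colony tested from its line after 1000 generations in rich medium, and it was grown for RNA to log phase in YPD at 36°C, as were the ancestors and the diploid. The 3 arrays of a group were technical replicates, so p-values within line 4 cover technical error and not the spread between clones or cultures.

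A newly formed tetraploid yeast cell carries a doubled genome in a larger cell and is known to lose chromosomes, grow slowly and tolerate stress poorly. In budding yeast, heat and changes of growth rate are known to move a large share of all transcripts, with ribosome production and translation going one way and chaperones and stress defence the other. A ratio centred within an array shows the share of a transcript among all transcripts, and a change in total RNA per cell is not seen in it.

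The listed names could not be used to say which genes these were. The table paired each of 6377 rows with a yeast systematic name, of which 5840 matched an annotated locus and 537 did not. Rows listed as an A and B pair, the duplicated genes of 1 ribosomal protein, had a median correlation of 0.015 over the 30 arrays (45 pairs, 23 above 0), where all pairs of rows had −0.00057. Within the lists of ribosomal proteins, ribosome biogenesis, chaperones, stress and reserve carbohydrates, respiration (oxidative phosphorylation), the proteasome and histones, mean pairwise correlations lay between −0.0242 and 0.0066, and a list of 15 single genes with a known part in the study had 0.0781. Genes of these classes are known to be regulated together, and the values did not show them doing so under these names. In line 4, 10 of 132 tested rows listed as ribosomal proteins were called (3 higher, 7 lower), or 7.58%, beside 8.39% of all rows tested, by the call defined below. The other lists had 7 of 110 (ribosome biogenesis), 3 of 46 (chaperones), 3 of 45 (stress), 3 of 38 (oxidative phosphorylation), 2 of 33 (proteasome) and 0 of 9 (histones), and the 15 single genes had 1 of 13 tested. These shares ran from 0% to 7.89%, none above that of all rows. Rows are therefore identified by their place in the deposited table, counted from 1, and no sequence or function is given to any of them.

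The arrays of line 4 held between 6184 and 6231 values, with 143 to 184 empty cells and 3 to 9 cells at a floor, which were set to missing. Their medians lay between 0.029 and 0.037. Over rows, the 3 arrays correlated with r between 0.921 and 0.936, and a row's standard deviation over them had a median of 0.0856. The other 7 lines had correlations between arrays from 0.468 to 0.916 and a median standard deviation from 0.0803 to 0.164, so the arrays of line 4 correlated more closely, with a row spread inside that range. How far single spots lay above background is unknown, as scanner intensities were not analysed here.

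The response of line 4 was broad. The median absolute log2 ratio, which says how far a typical row lay from its level in the ancestor, was 0.29, 0.33 and 0.34 on the 3 arrays (0.32 ± 0.025, SD, n = 3). In the other 7 lines this value averaged between 0.13 and 0.21 over the arrays, and the highest single array, in line 1, reached 0.27. The lowest array of line 4 was thus above every array of the other lines. The standard deviation over rows was 0.57 in line 4 and between 0.22 and 0.35 elsewhere, and the interquartile range was 0.62 beside 0.23 to 0.38. The centre of the distribution had widened as well as its ends.

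A call required 2 things of a row, an adjusted p under 0.05 (limma, Benjamini-Hochberg) and a mean at least 1 away from 0 on the log2 scale, which is a 2-fold change. Of 6208 rows tested in line 4, 521 met both (8.39%), 241 of them higher (3.88%) and 280 of them lower (4.51%) after evolution, and 169 rows had too few values to be tested. Past the adjusted p alone there were 4141 rows (66.7%), 2210 higher and 1931 lower, of which 3620 changed less than 2-fold. The 521 called rows held 50.1% of the summed squared log2 ratios, and the remainder lay in rows that were not called. Quantile normalization over the 30 arrays, which gives every array the same spread by construction, left 77 calls, 44 higher and 33 lower. With each array centred on its median there were 540 calls, 224 higher and 316 lower.

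The distribution was lopsided in its far ends. At a size of at least 0.25, 1892 rows were higher and 1710 lower. At 0.5, 954 rows were higher and 974 lower, or 31.1% of all rows tested. At a size of at least 1.5 the counts were 74 higher and 34 lower, and at 2 they were 26 higher and 5 lower. The higher rows were the more frequent at 0.25, the lower rows at 0.5 and 1 (241 higher and 281 lower), and 83.9% of the rows past a 4-fold change were higher in the evolved clone. The lowest and highest percent of rows began at −1.38 and 1.60, where in the other lines they began at −0.95 to −0.54 and 0.56 to 0.93. None of the other lines had more than 92 rows at a size of 1 or more than 3 at a size of 2.

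**Figure D1:**
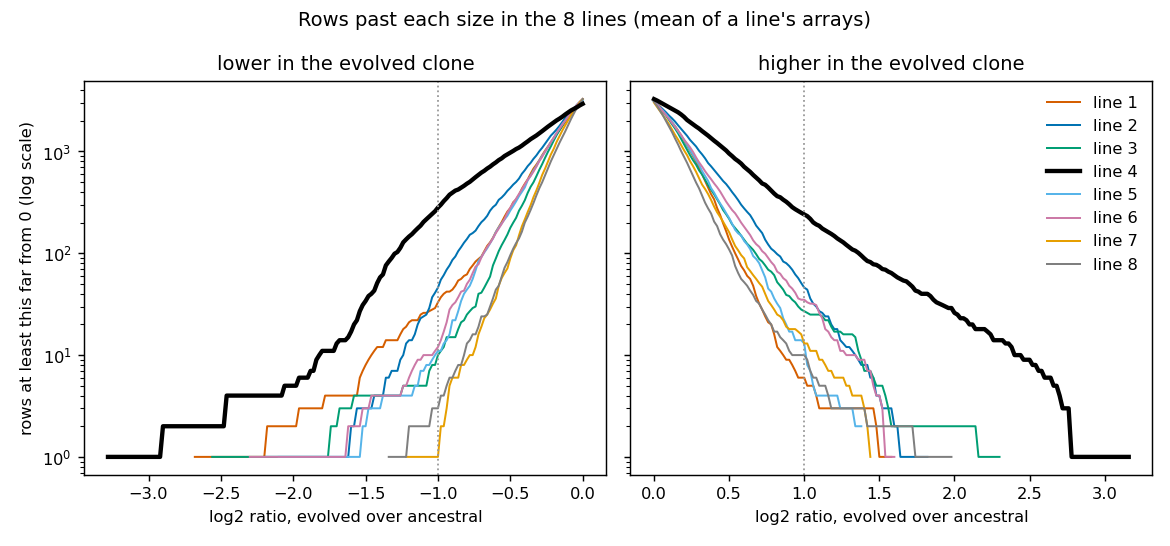
Number of rows (log scale) whose log2 ratio of evolved over ancestral lies at least as far from 0 as the value on the x axis, on the lower side (left) and the higher side (right), for the 8 lines. Line 4 (black) lies above the other lines at nearly all sizes, with 241 rows at or above 1 and 281 at or below −1 (dotted lines), 1 of which did not pass the adjusted p.

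In shape, line 4 resembled the other lines once its size was set aside. The top 1% of its rows (62 rows) held 14.5% of the summed squares, inside the range of 13.2% to 20.2% over the other lines, and the top 10% held 54.8%, beside 53.3% to 57.8%. By both measures its concentration in a few rows lay inside the range of the other lines.

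The 3 arrays agreed row by row. Of 6146 rows with 3 values, 5179 (84.3%) had the same sign on all 3 arrays. Among the called rows with 3 values this held for 515 of 516, and 371 of them were at least 2-fold on every array. Called rows had a median standard deviation of 0.12 over the arrays and the others 0.083.

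The called rows were scattered over the table. In 16 equal stretches of 398 or 399 rows, the number called ranged from 22 to 47, with 9 to 24 higher and 12 to 27 lower, and the median log2 ratio from −0.024 to 0.16. Only 49 called rows stood directly below another called row, 33 of them in the same direction. Over neighbouring rows the correlation in line 4 was 0.0911 (n = 6044 pairs), and at a distance of 10 rows it was 0.0057. The other lines ranged from 0.0583 (line 3) to 0.159 (line 8) between neighbours and from 0.0173 (line 5) to 0.114 (line 8) at a distance of 10, so the value of line 4 lay inside the range of the others for neighbours and below it at 10 rows. Rows are not independent replicates, and these correlations are given as a description.

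The 10 highest rows of line 4 ran from 2.45 to 3.16, and every one of their 30 array values was above 2. Row 5008, the highest, stood at 3.19, 3.35 and 2.95 (3.16 ± 0.20, SD, n = 3, limma adjusted p = 1.0e-14). Row 4345 stood at 2.86, 2.96 and 2.49 (2.77 ± 0.25), and row 5794 at 2.89, 2.89 and 2.52 (2.77 ± 0.21). Replicate 3 gave the lowest value of the 3 arrays in each of these rows. The others, in falling order, were rows 3568, 1276, 4349, 5884, 4934, 5343 and 3660, with standard deviations from 0.091 to 0.40. Row 3568, at 2.82, 2.69 and 2.64 (2.72 ± 0.091), was the most even of them. In all 10 rows the mean of line 4 was above the mean of every other line.

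The 10 lowest rows were less even. Row 4605, the lowest mean, stood at −2.52, −4.92 and −2.45 (−3.30 ± 1.41, SD, n = 3). It was low on every array, but its place as the lowest rested on a single array. Row 1632 stood at −3.07, −3.11 and −2.54 (−2.91 ± 0.32), and row 4248 at −2.40, −2.47 and −2.52 (−2.46 ± 0.063). These 2 rows were also low on every array and more even, and row 4248 was the tightest of all 20 extreme rows. Row 3334 stood at −2.38, −2.42 and −1.40 (−2.07 ± 0.58), and rows 1089, 5852, 1534 and 3663 lay between −1.97 and −1.85 with standard deviations of at most 0.17. The last of the 10 had the widest spread. Row 5305 stood at −1.23, −3.22 and −1.04, and row 2221 at −4.53, −1.25 and 0.36 (−1.80 ± 2.49, limma adjusted p = 0.039). Row 2221 thus changed sign between arrays, and it was no longer called without replicate 1 or 2, with the arrays of line 4 fitted alone, after quantile normalization or with a robust prior. The other 19 extreme rows kept their call under each of these settings. Rows 4605, 5305 and 2221 also had values in only 5, 6 and 2 of the other 7 lines.

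**Figure D2:**
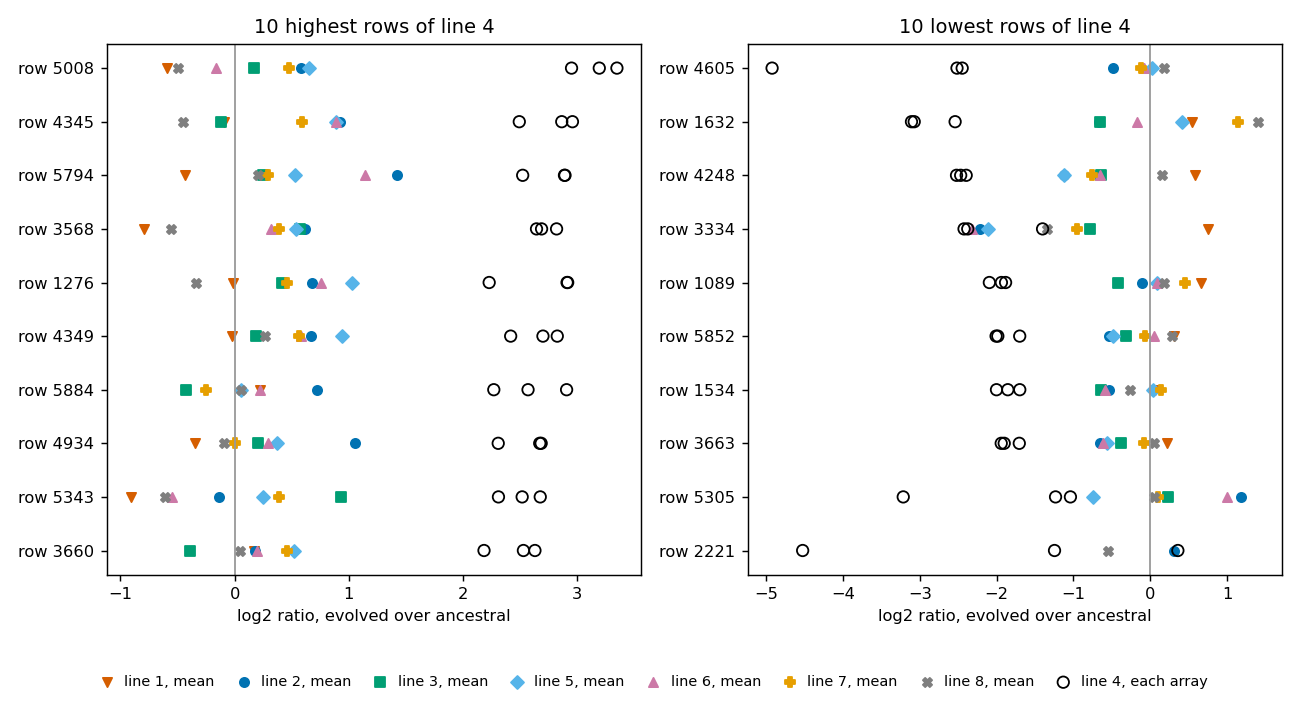
Log2 ratio of evolved over ancestral for the 10 highest (left) and 10 lowest (right) called rows of line 4, with the 3 arrays of line 4 as open circles and the means of the other 7 lines as filled symbols. All arrays of line 4 stand apart from the other lines in the 10 highest rows, while row 3334 overlaps lines 2, 5 and 6 and row 2221 spans 0.

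Recurrence was read in the other 7 lines, each of which had its own ancestor and arrays, so that no sample was shared with line 4. The rows were chosen on line 4 alone. One dye order was used on all arrays, so a direction shared between lines cannot be told apart from a dye effect of a probe. Of the called rows of line 4, the share with the same direction was 87.9% in line 5 (456 of 519), 81.1% in line 2 (421 of 519), 78.8% in line 6 (408 of 518), 78.3% in line 3 (403 of 515) and 76.2% in line 7 (396 of 520). Over all rows tested in line 4, the same shares were 68.4%, 59.5%, 60.1%, 63.5% and 61.1%. In all 5 lines, then, more of the called rows than of all rows went the way of line 4, and the lowest share on any single array of these lines was 64.3%, in line 7.

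Lines 1 and 8 went the other way. In line 1, 101 of 510 called rows (19.8%) had the direction of line 4, and 14.6% to 34.6% on its single arrays, beside 38.4% of all rows. In line 8 the share was 39.3% (204 of 519), but its arrays ran from 28.2% to 53.4%, beside 49.0% of all rows. The opposition of line 1 was thus present on every array, while that of line 8 differed between arrays. Over all rows, the correlation with line 4 was 0.52 for line 5, 0.39 for line 2, 0.37 for line 3, 0.32 for line 6 and 0.27 for line 7, then −0.068 for line 8 and −0.36 for line 1 (n between 6116 and 6195 rows). These values describe the arrays. The methods and labels give line 1 the same dyes and order of cultures as the other lines, so its direction was kept. With the calls of line 4 left out, the correlations were 0.44, 0.28, 0.33, 0.25 and 0.19 in lines 5, 2, 3, 6 and 7, 0.0025 in line 8 and −0.30 in line 1. The likeness to lines 2, 3, 5, 6 and 7 and the opposition of line 1 were therefore also present among rows under the call limit.

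Averaged over the 7 lines with equal weight, 65.9% ± 25.7 (SD, n = 7 lines) of the called rows had the direction of line 4, beside 57.1% ± 10.1 of all rows. The spread between lines was wider than this difference. Without line 1, a setting chosen after seeing the data, the share was 73.6%. It was 61.3% over the 3 other lines whose arrays, like those of line 4, had many empty cells (1, 5 and 7) and 69.4% over the 4 with few (2, 3, 6 and 8). The part of empty cells in this was not tested.

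Recurrence was small in size. Signed so that the direction of line 4 is positive, the median log2 ratio of the called rows was 0.33 for line 2, 0.31 for line 5, 0.23 for line 6, 0.20 for line 3 and 0.16 for line 7, or, as a median over rows, 12.7% (line 7) to 26% (line 2) of the size of the same row in line 4. In line 8 it was −0.058 and in line 1 −0.21. On the single-array scale the medians were 0.34 ± 0.024 (line 2), 0.33 ± 0.051 (line 5), 0.23 ± 0.079 (line 6), 0.20 ± 0.041 (line 3) and 0.15 ± 0.059 (line 7) (SD, n = 3 arrays), so each of the 5 lay above 0 by more than its spread. Line 8, at −0.051 ± 0.081, did not differ from 0 by more than its spread, and line 1, at −0.21 ± 0.038, did.

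Averaged over lines, the share rose with the size of the change in line 4 up to 1.5. For the 2606 rows under 0.25 in line 4, the share in the same direction averaged 53.3% ± 3.27 over the 7 lines (SD), and single lines ran from 48.2% to 58.6%. For 1406 rows between 0.5 and 1 it was 61.9% ± 18.0, with 80.6% in line 5 and 27.9% in line 1. For 414 rows between 1 and 1.5 it was 66.3% ± 25.7. Lines 2, 3, 5, 6 and 7 rose and lines 1 and 8 fell over these steps, so the lines drew apart as the change in line 4 grew. Past 1.5, with 108 rows, the shares in lines 2, 3, 5 and 6 were a little below those of the step before, and the average was 64.0% ± 25.9. Recurrence was therefore not confined to the called rows, and it was weakest where line 4 itself had barely moved. Rows under 0.25 had a median size of 0.123, beside a median standard deviation of 0.0856 over the arrays. Their sign in line 4 is thus uncertain, which draws the share towards 50% whatever the other lines did. Part of the rise with size is built in this way.

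**Figure D3:**
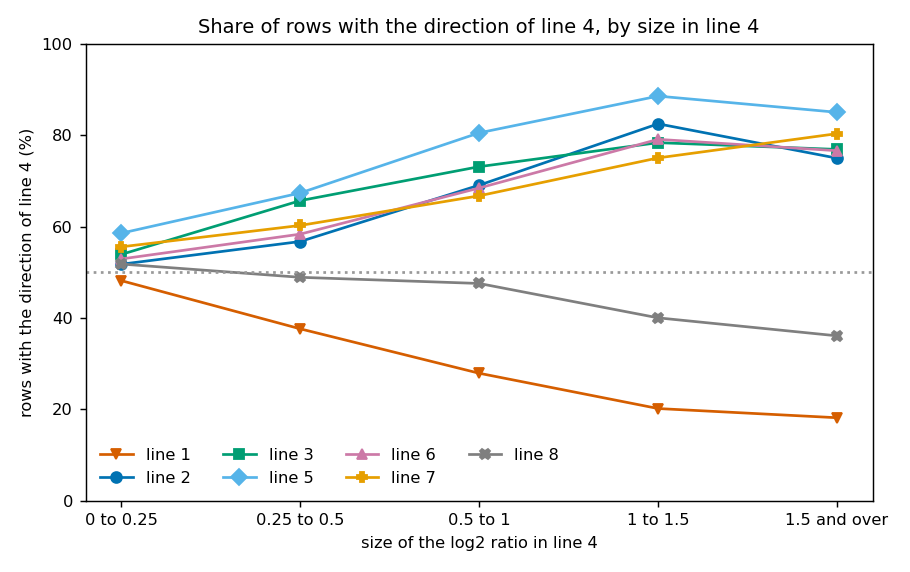
Percent of rows with the direction of line 4 in each of the other 7 lines (y axis), for rows grouped by the size of their log2 ratio in line 4 (x axis). Lines 2, 3, 5, 6 and 7 climb from between 51.8% and 58.6% to between 75.1% and 88.6% at sizes of 1 to 1.5, while line 1 falls from 48.2% to 18.2% and line 8 from 51.8% to 36.1% at the largest sizes.

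Rows lower in line 4 had its direction in more of the other lines than rows higher in it. Of 506 called rows with values in all 7 other lines, 312 (61.7%) had the direction of line 4 in at least 5 of them, beside 2494 of all 6070 rows (41.1%). Among the lower calls this held for 196 of 272 (72.1%) and among the higher calls for 116 of 234 (49.6%). Taken line by line, 251 of 279 lower calls had the same direction in line 2 and 170 of 240 higher calls (70.8%), and in line 6 these values were 86.3% and 70.0%. In line 7 the order was turned, with 74.6% of the lower and 78.0% of the higher calls, and in line 1 as well, with 18.9% and 20.9%. The mean of the other 7 lines was below 0 in 245 of 278 lower calls (88.1%, median −0.16) and above 0 in 180 of 240 higher calls (median 0.099), beside 63.8% of all rows on the side of line 4. No test was made of the difference between the 2 directions.

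**Figure D4:**
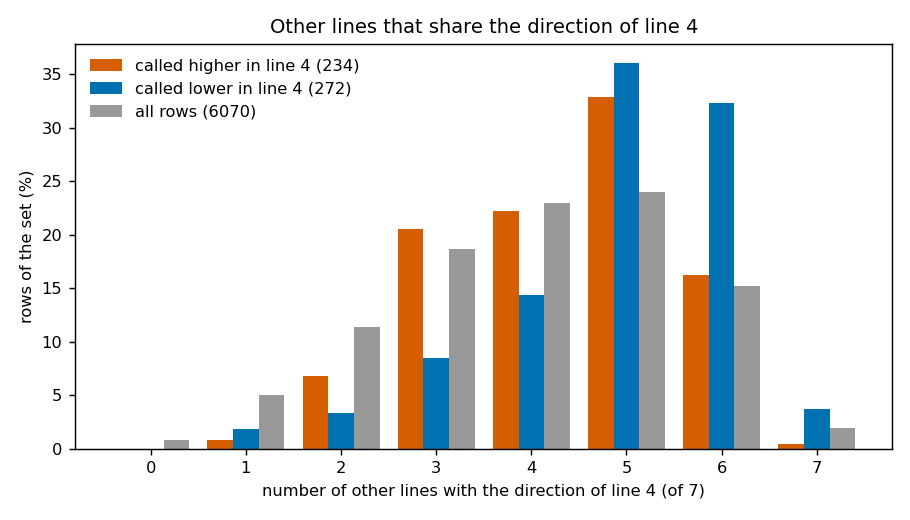
Percent of rows (y axis) by the number of the other 7 lines that had the direction of line 4 (x axis), for rows called higher in line 4 (234 rows), called lower (272 rows) and all rows (6070), each with values in all 8 lines. The lower calls lie furthest to the right, with 196 of 272 at 5 lines or more.

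Most of the recurrence passed the test at a small size and little of it was 2-fold. Of the 521 called rows, 460 (88.3%) passed limma's adjusted p in the same direction in at least 1 other line, beside 4436 of all rows tested (71.5%). In at least 4 other lines 166 (31.9%) did so, beside 771 (12.4%). In the opposite direction 190 of the 521 passed in 0 other lines and 10 passed in 4. These opposite counts over lines were not made over all rows, so they are not read as a result about the called rows. In single lines, from 8.06% (line 5) to 28.6% (line 1) of all rows passed in the opposite direction. In line 5, 322 called rows (62.0%) passed in the same direction and 15 (2.89%) in the opposite one, beside 32.5% and 8.06% of all rows tested in both lines. In line 2, 317 (61.1%) passed in the same direction, beside 32%, and 42 (8.09%) in the opposite one, beside 15.8%. Line 6 had 258 (49.8%) beside 26.6%, line 3 had 220 (42.7%) beside 26.4% and line 7 had 181 (34.8%) beside 19.7%, and in the opposite direction these lines had 42 beside 13.5%, 29 (5.63%) beside 10.1% and 26 beside 9.85%. In each of these 5 lines the called rows passed in the direction of line 4 more often than all rows did. In line 8, 50 called rows (9.63%) passed in the same direction, beside 11.1%, and 91 (17.5%) in the opposite one, beside 11.1%. In line 1, 24 (4.71%) passed in the same direction, beside 12%, and 232 (45.5%) in the opposite one, beside 28.6%.

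At 2-fold, 55 of the called rows (10.6%) were also called in the same direction in at least 1 other line, beside 123 of all rows tested (1.98%). Line 2 held 41 of these shared calls, beside 66 over all 6194 rows tested in both lines (1.07%). Line 5 held 13, beside 18 over all 6167 rows, and line 6 held 13, beside 31 over 6194. Line 3 held 6, beside 25 over all 6180 rows, and line 8 held 1, beside 4 over 6195. Line 1 held 0, beside 7 over all 6116 rows, and line 7 held 0, beside 4 over 6172. In the opposite direction 16 called rows (3.07%) were called in at least 1 other line, beside 80 of all rows tested (1.29%), and 9 of them were in line 1, beside 31 over all 6116 rows (0.507%). By count, line 4 and line 2 thus shared the most 2-fold calls, but line 2 also had the most calls of its own. Of its calls with a value in line 4, line 2 shared 41 of 85 and line 5 shared 13 of 22. Line 5 had the most rows in the same direction at any size.

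Read from the other side, the rows called in another line were chosen without line 4. Line 2 had 92 calls (1.45% of its rows tested), of which 66 of the 85 with a value in line 4 (77.6%) had the same direction there, with a signed median of 0.94 in line 4. Line 5 had 23 calls (0.366%), of which 18 of 22 had the same direction in line 4, at a median of 1.40. For line 3 (37 calls, 0.584%) it was 25 of 35 (71.4%) and 0.33, beside 63.5% of all rows in that direction. For line 6 (47 calls, 0.739%) it was 31 of 45 (68.9%) and 0.39, beside 60.1%. The few rows that changed 2-fold in line 5 were thus typically changed by more than that in line 4. For line 1 (39 calls, 0.624%) it was 7 of 38 and −0.38, for line 7 (14 calls, 0.222%) 4 of 14 and −0.13, and for line 8 (13 calls, 0.204%) 4 of 13 and −0.092. Line 7 therefore shared the direction of the calls of line 4, while few of its own calls had the direction of line 4.

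Some rows were called in line 4 and in 2 or more other lines. Among the lower ones, row 3334 was called in 4 other lines, with means of −2.22 (line 2), −2.11 (line 5), −2.32 (line 6) and −1.35 (line 8), beside −2.07 for line 4 itself. It also passed the adjusted p in lines 3 (−0.78) and 7 (−0.96), and in line 1 it passed in the opposite direction, at 0.75. It was the most widely shared called row, and in lines 2, 5 and 6 its mean lay further from 0 than in line 4, by less than the spread over the arrays of line 4. Row 4248 was called in lines 2 (−1.13) and 5 (−1.12) and passed in lines 3 (−0.64), 6 (−0.65) and 7 (−0.76). Rows 4179, 3175 and 5155 were likewise called in lines 2 and 5. Row 4179 had −1.58 in line 4, −1.36 in line 2 and −1.39 in line 5, and row 3175 had −1.42, −1.09 and −1.12. All 5 of these rows were above 0 in line 1, at 0.23 to 0.75.

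Among the higher ones, the 5 rows shared with the most lines were called in 2 others. Row 6185 had 1.54 ± 0.16 (SD, n = 3) in line 4, 1.64 in line 2 and 1.42 in line 6. Row 5887 had 1.04 ± 0.29 in line 4, 1.05 in line 2 and 1.46 in line 6, and row 3436 had 1.87 ± 0.059, 1.83 and 1.41. In these 3 rows line 2 differed from line 4 by less than the standard deviation over the arrays of line 4. Row 5794, the third highest of line 4 at 2.77, had 1.42 in line 2 and 1.14 in line 6. Row 3275 had 1.51 ± 0.14 in line 4, 1.03 in line 2 and 1.00 in line 5, but −0.33 in line 3, where it passed the adjusted p in the opposite direction.

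Rows with 1 direction in all 8 lines were few. They were picked out after their values were seen. Of the 506 called rows with values in every line, 11 (2.17%) had it, 10 lower and 1 higher, beside 117 of all 6070 rows (1.93%). Row 86, the higher one, had 1.49 ± 0.11 (SD, n = 3) in line 4 and between 0.083 and 0.72 in the others. Of the lower ones, row 3822 had −1.37 ± 0.11 (SD, n = 3) in line 4 and −0.96 in line 5, −0.78 in line 6 and −0.73 in line 2, but only −0.084 in line 1 and −0.12 in line 8. In each of the 11 rows line 4 was the furthest from 0. The share of called rows with 1 direction in all 8 lines was close to that of all rows. All arrays had the same dye order, so a dye effect of a probe and a direction shared by all lines cannot be told apart.

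The difference of line 4 from the mean of the other 7 lines was tested for each row in the same limma fit. Of 6070 rows, 3874 (63.8%) passed the adjusted p, and 363 (5.98%) also differed by at least 1 on the log2 scale, 202 higher and 161 lower in line 4. In 115 of the 363 rows the mean of the other lines lay on the other side of 0. Over all rows tested in line 4, 63.8% had that mean on the side of line 4. The 363 rows were chosen on the difference, which itself favours opposite sides, so the 115 are a description. The largest positive differences were in row 5008 (3.07 ± 0.17, SE, adjusted p = 2.6e-13), row 5343 (2.59 ± 0.18), row 3568 (2.56 ± 0.14) and, after row 5884, in row 4196 (2.46 ± 0.25). The largest negative ones were in row 1632 (−3.19 ± 0.19, adjusted p = 1.1e-12), row 1019 (−2.47 ± 0.44), row 1089 (−2.11 ± 0.16), row 4248 (−1.95 ± 0.12) and row 4789 (−1.92 ± 0.10). Row 1632 combined −2.91 in line 4 with 1.14 in line 7 and 1.40 in line 8. Row 1019 had a value on only 2 arrays of line 4. Row 5343 had 2.68, 2.52 and 2.31 in line 4 beside 0.93 in line 3 and −0.91 in line 1, so the other lines were themselves spread. These tests cover technical error, and with 1 clone per line a difference of line 4 and a difference of this clone or culture cannot be told apart.

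Line 4 was the furthest from 0 of all 8 lines in 496 of the 506 called rows with all values (98.0%) and in 3169 of all 6070 rows (52.2%). The called rows were chosen for their size in line 4, so the first share is a description. The 10 exceptions were led by line 3 in 4 rows and by lines 2 and 6 in 3 rows each.

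Whether the other 7 lines had a response in common was tested on their line means, with the line as the replicate. This is not a test of single lines, which had from 13 (line 8) to 92 (line 2) calls each. Of 6331 rows tested with limma, 0 passed the adjusted p (0%), the smallest of which was 0.34, while 861 rows (13.6%) had an unadjusted p under 0.05 and the methods' t-test gave 697. Of 518 called rows of line 4, 139 (26.8%) had an unadjusted p under 0.05 in the direction of line 4 and 5 in the opposite one. The count past the adjusted p was 141 without line 1 and 432 with the sign of line 1 turned, and it was 0 without any other single line. With the 21 arrays fitted singly, line as a random block and the replicate number as a block, 2 changes made together, the count was 95.

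Line 4 was also the line whose ancestor and evolved clone were each compared with the diploid. The 3 comparisons share samples, so their values are set side by side. The rows were chosen on the ratio of evolved 4 to ancestral 4, which favours an ancestor and an evolved clone on opposite sides of the diploid whatever the diploid's level, so the counts below are a description. The 241 rows called higher in evolved 4 over ancestral 4 had array medians of 1.34, 1.41 and 1.15 there. In ancestral 4 over diploid the same rows had array medians of −0.60, −0.95 and −0.60 (−0.72 ± 0.20, SD, n = 3). In evolved 4 over diploid the medians were 0.49, 0.54 and 0.33 (0.46 ± 0.11). The rows higher in the evolved clone were thus below the diploid in the ancestor and somewhat above it in the evolved clone, on every array. As a description, 200 of these rows passed the adjusted p below the diploid in the ancestor, beside 35.6% of all rows tested, and 181 passed above it in the evolved clone, beside 26.9%.

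The 280 rows called lower had array medians of −1.27, −1.24 and −1.14 in evolved 4 over ancestral 4. Against the diploid, the ancestor had 0.13, 0.43 and 0.11 (0.22 ± 0.18, SD, n = 3) and the evolved clone −0.64, −0.68 and −0.52 (−0.61 ± 0.080). For the lower rows the ancestor was therefore nearer to the diploid than the evolved clone was. In the evolved clone 249 of 277 passed below the diploid, beside 24.6% of all rows tested, while in the ancestor 141 of 275 passed above it, beside 29.7%, and 45 passed below it.

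**Figure D5:**
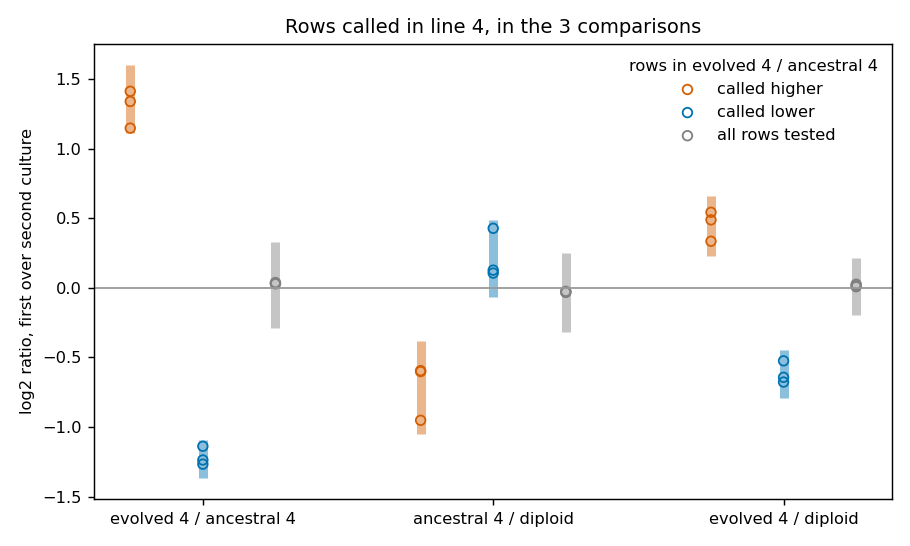
Log2 ratios of the rows called higher, the rows called lower and all rows tested in evolved 4 over ancestral 4, in each of the 3 comparisons of line 4. Open circles are the medians of the rows on each of 3 arrays and bars run from the 25th to the 75th percentile of the row means; the higher rows stand at −0.72 in ancestral 4 over diploid and at 0.46 once evolved, averaged over arrays, and the lower rows at 0.22 and −0.61.

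By row, 147 of the 241 higher calls passed the adjusted p on opposite sides of the diploid, with the ancestor below it and the evolved clone above it, or 61%, beside 469 of all 3249 rows above 0 in line 4 (14.4%). In 52 further rows the ancestor passed below the diploid and the evolved clone did not pass, and in 26 the evolved clone passed above it and the ancestor did not, or 21.6% and 10.8%, beside 28.1% and 14.2% of all rows above 0. Of the 275 lower calls with values in both comparisons, 125 passed on opposite sides (45.5%, beside 13.9% of all 2885 rows below 0), 79 passed below the diploid in the evolved clone alone (28.7%, beside 15.7%) and 13 passed above it in the ancestor alone (4.73%, beside 19.3%). Among rows that passed on 1 side alone, the ancestor was the more frequent in the higher calls, as it was among all rows above 0. In the lower calls the evolved clone was the more frequent, whereas among all rows below 0 the ancestor was. The 10 highest rows had the ancestor below the diploid and the evolved clone above it. Their ancestral 4 over diploid values were all below 0, from −2.16 in row 4345 to −0.47 in row 4934, and their evolved 4 over diploid values were all above 0, from 0.44 in row 1276 (adjusted p = 0.084) to 1.09 in row 5794.

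The 3 comparisons did not always close. As medians of row means, the higher calls had 1.28 directly, beside −0.74 in the ancestor and 0.47 in the evolved clone against the diploid. The lower calls had −1.22 directly, beside 0.20 and −0.62, a smaller gap than the direct ratio. In a few extreme rows the diploid comparisons gave no fall from the ancestor to the evolved clone. Row 4605 had −3.30 in evolved 4 over ancestral 4, but against the diploid it had −3.72 ± 0.25 (SD, n = 3) in the ancestor and −2.25 ± 0.30 in the evolved clone, so that the ancestor stood lower than the evolved clone against the diploid. Row 1534 had −1.85 in the direct comparison, and −0.63 ± 0.47 and −0.52 ± 0.14 against the diploid. Row 4248 kept its direction, with −0.14 ± 0.50 against the diploid in the ancestor and −1.71 ± 0.047 in the evolved clone. The gap between these was smaller than its direct ratio of −2.46. Row 3436, shared with lines 2 and 6, was above the diploid in both, at 0.91 ± 0.34 in the ancestor and 1.82 ± 0.19 in the evolved clone. This gap, too, was smaller than its direct ratio of 1.87.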

How the data were processed

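Total RNA of 2 cultures was hybridised to each spotted oligonucleotide array. The authors left out spots of low intensity, took log2 ratios and normalized each array by LOWESS in GeneSpring GX, and the deposited log2 values were used as they stand. Their base and their centring near 0 were tested on the file, and direction and dyes rest on labels and methods. The table held 3053 empty cells and 84 cells at the floor of −6.64, which were set to missing. The number of arrays limits the precision.

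Groups were taken from the sample titles. A single limma model (version 3.58.1 under R 4.3.3, lmFit and eBayes) held the means of the 10 groups, with Benjamini-Hochberg adjustment over all rows, for rows with at least 2 of 3 arrays. Python 3.11.15 (pandas 2.3.3, numpy 2.4.6) gave counts and medians, and matplotlib 3.10.9 the figures. Means were rounded to 10 decimals before they were compared with the fold limit. For the common response, limma was given 7 line means, and a row needed at least 5 of them.

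Rows described singly were the 10 highest and 10 lowest called rows with 3 values, up to 5 higher and 5 lower rows called in the most other lines, and the 5 highest and 5 lowest differences from the other lines. The line, the rows' rules and the lists were chosen with earlier results of these data known. Names, from the R64 annotation's locus tags, were to be printed only if the values bore them out.

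Simulated tables had 200 changed rows. At a log2 change of 0.5, the adjusted p recovered 91.8% of 195 changed rows in line 4, 90.9% of 187 for the difference and 74.4% of 199 for the common response. No smaller change was simulated. The mean of the other 7 lines had medians of 0.099 and −0.16 over the higher and lower calls of line 4, so recovery at such sizes is unknown. Simulated line effects were drawn independently. At 1.2, 99.0% and 97.9% were called in the first pair, with 0 false calls. Alternatives were other scalings and filters, a block by replicate number, line 4 fitted alone, a robust prior, other fold limits, each replicate or line left out, and a t-test, here called the methods' t-test, since the paper names its threshold but no test. For recurrence, the lines apart by empty cells, line 1 left out or with its sign turned, and the higher and lower calls apart were added after seeing the data.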

Additional observations from a re-analysis of the deposited data

Results flagged for a closer look

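Line 4 stood apart from the other 7 lines in 3 measures of size. Its 521 called rows compare with 13 to 92 in the other lines, its median absolute log2 ratio of 0.31 with 0.12 to 0.19, and its standard deviation over rows of 0.57 with 0.22 to 0.35. In each case its gap to the next line, as a share of the range over the 8 lines, was above Dixon's critical value. Of 8 measures examined over the lines, these 3 were set apart. By chance about 1 in 20 is, which comes to 0.4 of 8. The 3 describe the same arrays and are not independent of each other. Line 4 was also chosen with earlier results of these data known. The 3 flags therefore cannot be weighed against the number given for chance, and they only describe the size of its response. The share of calls that were higher, the correlation of neighbouring rows, the concentration in the top rows, the share of calls of line 4 with the same direction and the correlation with line 4 did not set any line apart in this way.

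Line 4 differed from the mean of the other 7 lines by at least 2-fold in 363 rows by limma's test of the difference, 202 higher and 161 lower. The test covers technical error only.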

How the results depend on the processing

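For 17 results, 168 alternative values were computed, of which 142 stayed close to the value reported (within 1.5 times for a count and 1 SD otherwise), 25 moved and 1 reversed. The limit for the recurrence averaged over lines was the spread between the 7 lines, which is wide. Calls in line 4 were 77 after quantile normalization, with 57.1% higher against 46.3%, and 4141 with no fold minimum. Rows called for the difference from the other lines were 52 (71.2% higher against 55.6%) and 3874 under the same settings. Over the scalings and filters other than these, calls in line 4 ranged from 516 to 540. The methods' t-test gave 366 calls at its own threshold and 506 after Benjamini-Hochberg. With each replicate of line 4 left out in turn, calls ran from 489 to 582, difference calls from 332 to 429, recurrence from 65.8% to 66.2% and the median absolute ratio from 0.31 to 0.33. The common response of the other lines counted 432 rows with the sign of line 1 turned and 95 with a replicate block and line as a random block, and from 0 to 141 with a line left out, the 141 being without line 1; the cause was not tested. With the sign of line 1 turned, its share of rows in the direction of line 4 lay 30.2 percentage points above an even split in place of 30.2 below it, by construction. The replicate number as a block gave 520 calls in line 4 and 363 for the difference. With each group's row means removed, same-numbered arrays of line 4 and the other groups correlated between −0.18 and 0.27 (27 pairs, 5 above 0.1). The highest value was for replicate 3 of evolved 4 over diploid. These values do not settle whether the numbers pair the arrays. Spot intensities over background were not used here, which limits what can be said of rows with empty cells.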
